A study of Mus musculus with 48 samples.

Results

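The flavin-containing monooxygenases described here are the 4 genes Fmo1, Fmo2, Fmo4 and Fmo5, taken by symbol from the 30055 gene rows of the expected count table and followed through all 16 groups of the study. These enzymes sit in the membrane of the endoplasmic reticulum, hold a flavin (FAD) and use NADPH and oxygen to add an oxygen atom to nitrogen or sulfur in drugs, dietary amines and some metabolites. The liver carries several forms, and in rodents their level in liver is known to depend on sex. Fmo1 oxidises hypotaurine to taurine as well as many drugs, Fmo2 is best known as the lung form of many mammals, Fmo4 has few known substrates, and Fmo5 inserts oxygen next to ketone groups and has been tied to body weight and metabolism in mice.

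The study fed C57BL6/J mice, from 8 weeks of age, a regular chow (RD) or a high-fat diet with 45% of its calories as fat (HFD) for 2 or 12 weeks, and sequenced polyadenylated RNA of liver and visceral white adipose tissue. Male and female mice on each diet at each time give 8 groups in each tissue, every one of 3 libraries, 48 libraries in all. The 2-week and 12-week animals were separate cohorts, so that time on diet, age and cohort cannot be told apart. The labels give each library a number within its group but do not say how the animals were housed or dissected, and p-values measure the spread between these libraries.

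Library totals ran from 50888700 to 80062300 expected counts in liver and from 44698200 to 105409000 in adipose tissue. The hepatocyte marker Alb ranged from 37871 to 106925 CPM (expected counts scaled to the library total with TMM factors) in liver, where the adipocyte marker Adipoq did not pass 2.62 CPM. In adipose tissue Adipoq ranged from 880 to 4012 CPM. Some male adipose libraries held markers of the epididymis, with up to 6500 CPM of Crisp1, a secreted protein of its epithelium, and Cdh1, the cadherin of epithelia, reached its highest adipose level, 298 CPM, in HFD female 1 at 2 weeks.

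Of the 4 genes, 3 lie in a row on mouse chromosome 1, within 105.5 kb of the minus strand (GRCm38, GENCODE gene models). Fmo4 occupies chr1:162793188-162813972, Fmo1 chr1:162829561-162866610 and Fmo2 chr1:162874317-162898726, while Fmo5 lies alone on the plus strand of chromosome 3 at chr3:97628804-97655282. No other annotated gene overlaps any of the 4. Their coding sequences are 61.3% to 65.1% identical pair by pair, and no stretch of 31 bases is shared between the transcripts of any pair. Stretches of 31 bases shared with other genes made up 7.95% of those of Fmo1, 0.473% of Fmo5, 0.0355% of Fmo2 and 0 of Fmo4.

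Promoter windows of 300 bases, from 250 bases before to 50 after the RefSeq start (build GRCm38.p6), were at hand for 3 of the 4 genes. They are shown because Fmo2 and Fmo4 were higher in female liver while Fmo5 was not. Capitals mark matches, on either strand (a match on the other strand reads as the reverse complement), to any of 9 motifs. These are STAT5 (TTCNNNGAA), the xenobiotic response element (GCGTG), the antioxidant response element (TGACNNNGC) and the TATA box, spelled TATAAA. The CCAAT box is searched by its own letters, the forkhead motif as TGTTTAC and the E-box as CACGTG. A motif of nuclear receptors is AGGTCA, and that of steroid receptors, such as that for glucocorticoids, is TGTTCT. The windows run 5′ to 3′ on the strand of the gene and lie at chr1:162898444-162898743 (minus) for the second listed start of Fmo2, chr1:162812500-162812799 (minus) for Fmo4 and chr3:97628769-97629068 (plus) for Fmo5.
Fmo2: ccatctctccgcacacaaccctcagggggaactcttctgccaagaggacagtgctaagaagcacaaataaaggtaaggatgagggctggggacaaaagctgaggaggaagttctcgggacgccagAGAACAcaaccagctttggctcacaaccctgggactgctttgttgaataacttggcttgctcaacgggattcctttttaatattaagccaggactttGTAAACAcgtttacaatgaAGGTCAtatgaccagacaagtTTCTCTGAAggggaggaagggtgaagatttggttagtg
Fmo4: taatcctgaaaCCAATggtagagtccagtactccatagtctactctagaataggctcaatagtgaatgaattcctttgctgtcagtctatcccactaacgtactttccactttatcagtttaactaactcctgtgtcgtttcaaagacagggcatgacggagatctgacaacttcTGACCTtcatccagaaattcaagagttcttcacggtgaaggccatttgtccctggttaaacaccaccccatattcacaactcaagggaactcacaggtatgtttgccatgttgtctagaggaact
Fmo5: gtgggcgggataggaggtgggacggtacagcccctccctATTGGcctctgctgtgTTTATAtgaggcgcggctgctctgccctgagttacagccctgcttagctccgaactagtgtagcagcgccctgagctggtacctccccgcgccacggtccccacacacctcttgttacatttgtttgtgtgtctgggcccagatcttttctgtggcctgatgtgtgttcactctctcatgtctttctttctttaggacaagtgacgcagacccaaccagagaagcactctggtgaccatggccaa
The Fmo2 window holds a STAT5 motif at bases 263 to 271, a forkhead motif at 223 to 229, AGGTCA at 242 to 247 and TGTTCT at 126 to 131. That of Fmo4 holds a CCAAT box at bases 12 to 16 and AGGTCA at 176 to 181. The Fmo5 window matches CCAAT at 40 to 44 and TATAAA at 56 to 61, both on the other strand. Its TATAAA match lies at offset -195 from the start, and whether it serves as a TATA box was not tested. Of 32817 promoter windows of the same length, 8.29% hold the STAT5 motif, 3.65% the forkhead motif, 16.3% AGGTCA, 19.0% TGTTCT, 37.4% a CCAAT box and 13.6% a TATA box. The window of the first listed start of Fmo2 held none of the motifs searched. The xenobiotic element, the antioxidant element and the E-box, held by none of the 4 windows, are in 32.4%, 12.4% and 7.15% of all windows.

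The question asked first was how the family differs between female and male liver. Fmo1, Fmo2 and Fmo4 were higher in females on both diets and at both times, and Fmo5 was lower in females at 12 weeks. Fmo2 showed the largest fold, 7.23-fold on RD and 8.18-fold on HFD at 2 weeks, when Fmo1 was 2.94-fold and 3.82-fold and Fmo4 3.31-fold and 2.18-fold higher. At 12 weeks the folds were smaller, with values of 3.69 and 3.06 for Fmo2, 1.96 and 1.49 for Fmo1 and 2.46 and 1.67 for Fmo4, on RD and HFD. These calls are from edgeR's quasi-likelihood test over 15897 genes, at an adjusted p below 0.05. Among all genes tested, 9.81% passed on RD and 12.4% on HFD at 2 weeks, and 8.81% and 17.3% at 12 weeks, against 3, 3, 4 and 4 of the 4 members.

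**Figure D1:**
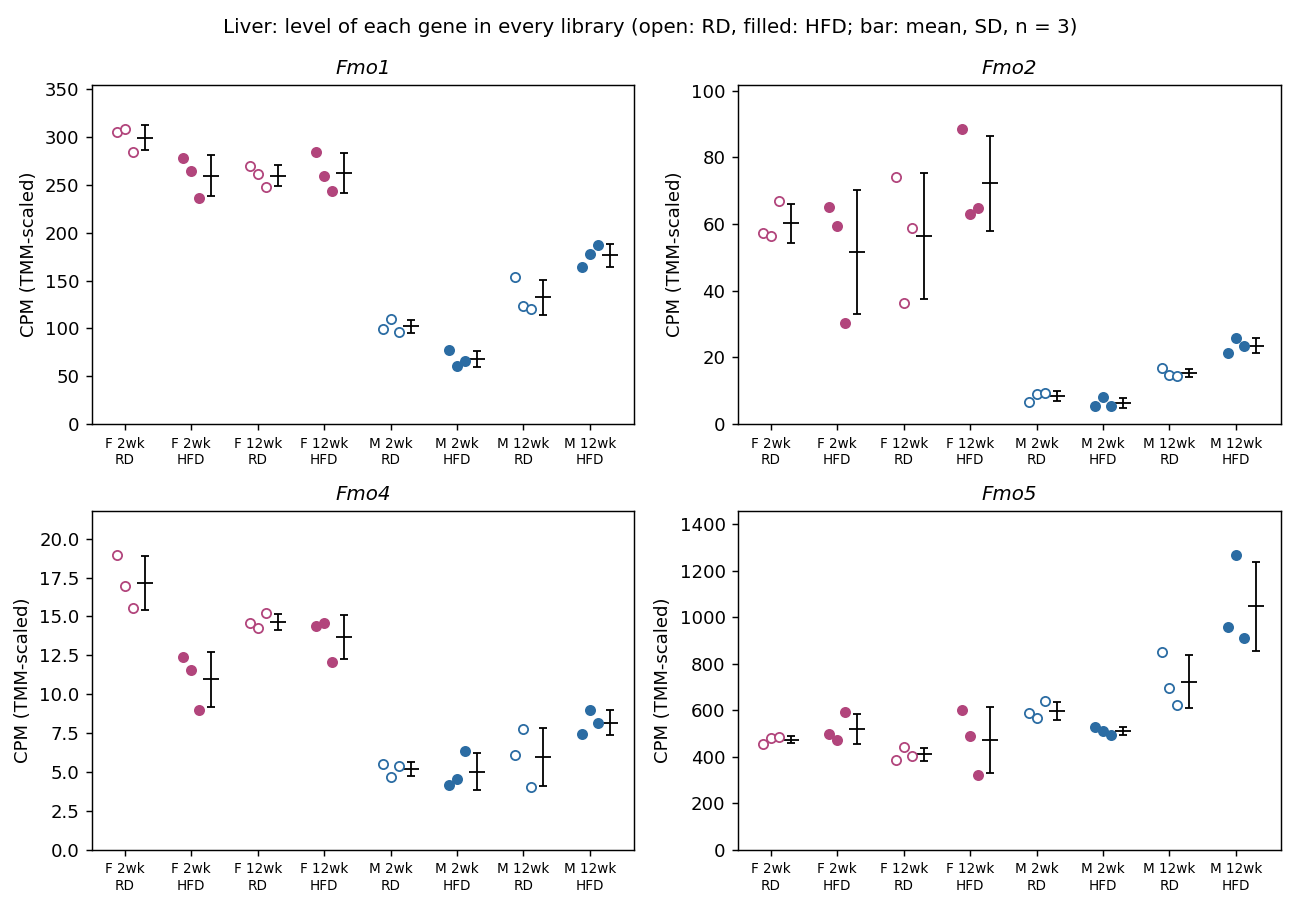
TMM-scaled CPM of each gene in every liver library, in 8 groups by sex (pink F, blue M), weeks on diet and diet (open RD, filled HFD), with the group mean and SD (n = 3). Fmo1 and Fmo2 sit higher in all female libraries than in all male libraries, Fmo4 is higher in females within each diet and time, and Fmo5 is highest in HFD males at 12 weeks, at 913 to 1269 CPM.

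The values of Fmo1 in RD females at 2 weeks were 306, 308 and 285 CPM, and in RD males of that time 99.8, 109.8 and 96.6 CPM. HFD females at 2 weeks had 278, 265 and 236 CPM and HFD males 77.7, 60.5 and 65.7 CPM. At 12 weeks RD females had 269, 262 and 248 CPM against 154, 123 and 121 in RD males, and HFD females 285, 259 and 244 against 164, 178 and 187 in HFD males. The lowest female library was thus above the highest male library in the whole set of 24, and the male values were further apart between groups than the female ones. The log2 differences of Fmo1, female over male, were 1.55 ± 0.12 (SE, n = 3 each, adjusted p 1.38e-08) and 1.93 ± 0.12 (5.81e-10) on RD and HFD at 2 weeks, and 0.97 ± 0.12 (1.24e-05) and 0.57 ± 0.12 (0.00214) at 12 weeks.

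Fmo2 was at 57.4, 56.3 and 67.0 CPM in RD females at 2 weeks and at 6.63, 8.95 and 9.42 CPM in RD males. On HFD at 2 weeks females had 65.2, 59.3 and 30.5 CPM and males 5.30, 8.14 and 5.50 CPM. At 12 weeks RD females had 74.0, 36.4 and 58.7 CPM against 16.7, 14.6 and 14.5 in males, and HFD females 88.5, 63.1 and 64.9 against 21.3, 25.9 and 23.4. Here too no male library reached the lowest female one, with males at 5.30 to 25.9 CPM and females at 30.5 to 88.5 CPM. The log2 differences were 2.85 ± 0.27 (adjusted p 3.72e-07), 3.03 ± 0.28 (1.67e-07), 1.88 ± 0.26 (7.15e-05) and 1.62 ± 0.26 (0.000209) in the same order.

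Fmo4 had 19.0, 16.9 and 15.6 CPM in RD females at 2 weeks and 5.49, 4.68 and 5.36 CPM in RD males, and 12.4, 11.6 and 8.96 CPM in HFD females against 4.16, 4.54 and 6.38 CPM in HFD males. RD females at 12 weeks had 14.6, 14.2 and 15.2 CPM against 6.08, 7.75 and 4.03, and HFD females 14.4, 14.6 and 12.1 against 7.42, 8.98 and 8.15. The sexes did not overlap within any pair of groups, though the lowest female library, 8.96 CPM, was just under the highest male one, 8.98 CPM. The log2 differences were 1.73 ± 0.20 (adjusted p 5.23e-06), 1.13 ± 0.19 (0.000599), 1.30 ± 0.20 (0.000181) and 0.74 ± 0.19 (0.0115).

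Fmo5 ran the other way. RD males at 12 weeks had 849.7, 697 and 625 CPM against 387, 442 and 403 in RD females, and HFD males 959, 1269 and 913 against 603, 490.2 and 322. The sexes overlapped on neither diet, and the log2 differences, female over male, were -0.82 ± 0.18 (adjusted p 0.00562) and -1.15 ± 0.18 (0.000142). At 2 weeks the values were 457, 479.6 and 486 CPM in RD females, 588, 566 and 640.1 in RD males, 497, 473 and 594 in HFD females and 529, 509 and 493 in HFD males. The log2 differences there were -0.33 ± 0.18 (adjusted p 0.238, interval of 2 SE -0.69 to 0.02) and 0.03 ± 0.18 (0.94, interval -0.32 to 0.38), and neither passed, though the first did when the 2 groups were fitted alone (0.0309).

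**Figure D2:**
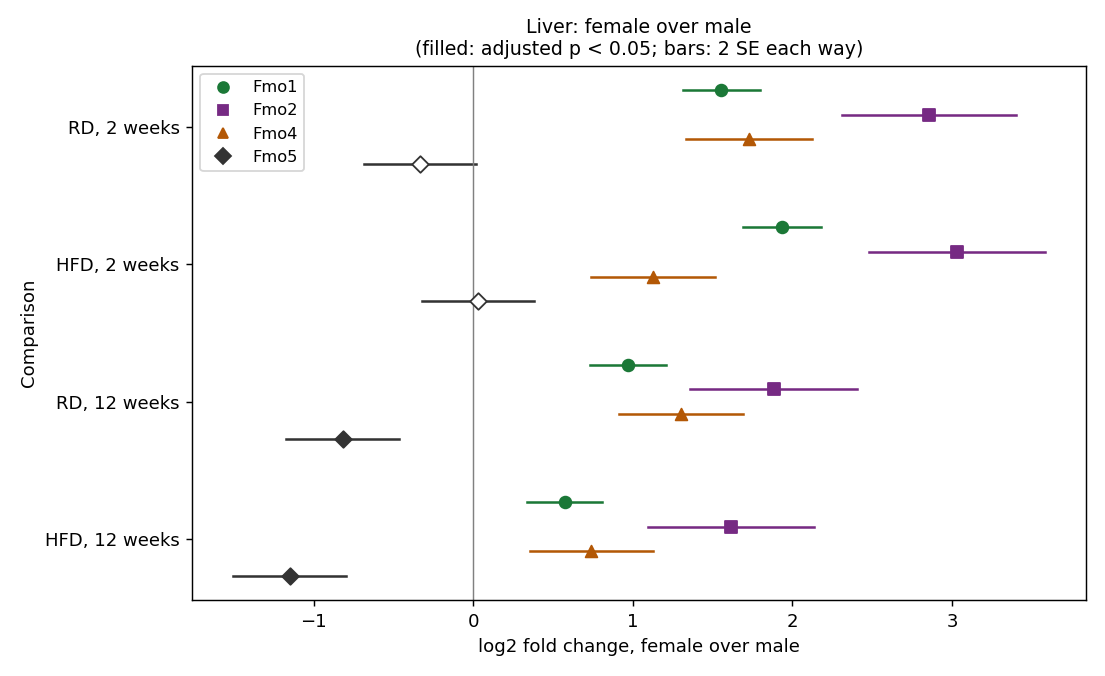
Log2 fold change of each gene in liver, female over male, for each diet and time, with bars of 2 SE each way and filled symbols for an adjusted p below 0.05. Fmo1, Fmo2 and Fmo4 stand to the right of 0 in all 4 comparisons, with Fmo2 farthest at 3.03 on HFD at 2 weeks, while Fmo5 stands to the left at 12 weeks.

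Cell type markers moved with sex as well. Of 11 marker lists, the summed CPM did not overlap between the sexes for 5 on RD and 1 on HFD at 2 weeks and for 6 on each diet at 12 weeks. The sums of 8 hepatocyte markers were higher in females at 2 weeks, at 113287 to 132918 CPM against 89924 to 111427 in RD males and at 117716 to 139135 CPM on HFD against 75747 to 85557. Of single hepatocyte markers 0 passed on RD, and 1 was higher and 1 lower on HFD. The sums of pericentral hepatocyte markers overlapped in 3 of the comparisons and were lower in females on HFD at 12 weeks, at 9062 to 10711 CPM against 11332 to 11961. Those of periportal markers overlapped in all 4, but single genes of these lists were apart. Cyp2f2, of the periportal list, was lower in females in all 4, at 579 to 665 CPM against 1185 to 1259 on RD at 2 weeks. Glul, of the pericentral list, was higher in females on RD at both times, at 1304 to 1597 against 842 to 964 at 2 weeks, and overlapped on HFD. At 12 weeks on HFD, 6 of 7 macrophage markers were higher in females, with sums of 325 to 359 CPM against 73.7 to 115 in males, and 6 of 8 endothelial markers, with sums of 173 to 211 against 76.8 to 116. Macrophage sums were also apart on RD, at 331 to 368 CPM in females and 252 to 290 in males at 2 weeks, and at 285 to 446 and 187 to 220 at 12 weeks. The part of these markers in the sex differences was not tested. In liver lists around the family, the growth hormone and sex factors had 3, 2, 2 and 3 of 9 genes higher in females and 0 lower in the 4 comparisons, in the order RD and HFD at 2 weeks and RD and HFD at 12 weeks, where 9.81%, 12.4%, 8.81% and 17.3% of all genes passed in either direction. Among them Cux2, a homeobox factor of female liver, was 2.57, 2.52, 2.26 and 2.82 log2 units higher. Of 9 amine and sulfur oxidation genes 2, 3, 1 and 1 were higher in females and 2, 1, 2 and 2 lower, in the same order. Maob, the monoamine oxidase B, was higher in all 4, by 1.07, 1.25, 0.62 and 0.50 log2 units, and the aldehyde oxidase Aox3 lower, at -1.64, -1.95, -1.69 and -1.29. Of 8 taurine route genes 1, 1, 0 and 1 were higher and 0, 2, 0 and 2 lower. Among them Cdo1, the cysteine dioxygenase ahead of hypotaurine, passed as higher at 2 weeks, at 0.54 on RD and 0.50 on HFD, and was at 0.23 and -0.04 without passing at 12 weeks. Of 5 flavin supply genes 1 was higher in each comparison and 0 lower. Rfk, the riboflavin kinase, passed at 0.61, 0.55 and 0.52 on RD at 2 weeks and on RD and HFD at 12 weeks, and was at 0.13 without passing on HFD at 2 weeks. None of the 7 electron partners, such as Por, the reductase that passes electrons to cytochrome P450, passed in any of the 4.

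Levels between the genes were compared as CPM per kb of exon, using the union of the exons of protein-coding transcripts. Each tissue was scaled in its own fit, so these levels are read within a tissue and not between the tissues. In liver Fmo5 had the highest group means, 77.3 to 98.1 CPM per kb in females and 96.1 to 197 in males, and Fmo1 the next, 72.3 to 83.4 and 18.9 to 49.1. Fmo2 stood at 11.7 to 16.3 CPM per kb in females and 1.43 to 5.33 in males, and Fmo4 at 3.70 to 5.79 and 1.70 to 2.76. With the length of the longest transcript Fmo1 passed Fmo5 in females, at 109 to 125 CPM per kb against 79.1 to 100.3, so the order of these neighbours rests on the length used. In adipose tissue Fmo1 was highest under either length, at 40.7 to 91.4 CPM per kb in females and 27.6 to 83.9 in males, followed by Fmo2, Fmo5 and Fmo4, the last at 0.234 to 0.470.

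The next question was whether the 12-week cohort differs from the 2-week cohort. On HFD in males all 4 genes were higher at 12 weeks: Fmo2 3.73-fold, Fmo1 2.60-fold, Fmo5 2.05-fold and Fmo4 1.63-fold. This comparison held 17.1% of all genes tested as passing, and the median log2 difference of all genes was 0.02. The per-library values above show it directly, with Fmo1 at 60.5 to 77.7 CPM in the 2-week males and 164 to 187 in the 12-week males, which do not overlap. The log2 differences were 1.38 ± 0.12 (adjusted p 1.16e-06) for Fmo1, 1.90 ± 0.26 (7.78e-05) for Fmo2, 0.70 ± 0.20 (0.0166) for Fmo4 and 1.04 ± 0.18 (0.000488) for Fmo5. The Fmo4 call was lost without any 1 of 3 libraries, HFD male 3 at 12 weeks (adjusted p 0.0704), HFD male 12 at 2 weeks (0.0924) or HFD male 13 at 2 weeks (0.076), and when the 2 groups were fitted alone (0.107).

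**Figure D3:**
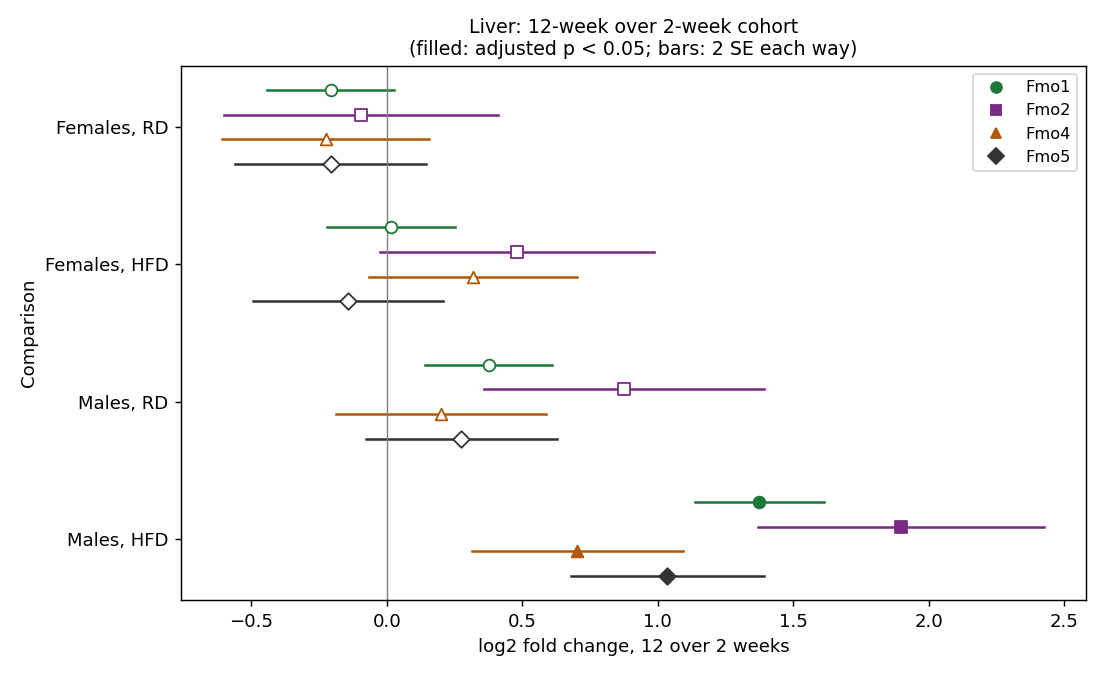
Log2 fold change in liver, 12-week over 2-week cohort, in each sex and diet, with bars of 2 SE each way and filled symbols for an adjusted p below 0.05. Only the HFD males have filled symbols, from 0.70 for Fmo4 to 1.90 for Fmo2.

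In the other 3 time comparisons none of the 4 genes passed with edgeR. On RD in males, where 0.233% of all genes passed, Fmo2 was 0.88 ± 0.26 (adjusted p 0.166) and Fmo1 0.38 ± 0.12 (0.193) on the log2 scale. Both were at an unadjusted p below 0.05, as were 1823 of all genes. DESeq2 called 1 member, Fmo2, and 278 of all genes. In females 0% passed on RD with edgeR (872 genes at an unadjusted p below 0.05, 59 with DESeq2) and 0.0189% on HFD (1495 and 99). No member had an unadjusted p below 0.05 there and DESeq2 called 0, with log2 values from -0.22 to 0.48.

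The change of the sex difference between the cohorts was tested directly, a comparison chosen after its values were seen. On HFD the female over male log2 value was lower at 12 than at 2 weeks for Fmo1 (-1.36 ± 0.17, adjusted p 0.000392), Fmo2 (-1.42 ± 0.36, 0.0389) and Fmo5 (-1.18 ± 0.25, 0.0144), and Fmo4 gave -0.39 ± 0.27 (0.48). Among all genes 2.76% passed. The Fmo2 call was lost without any 1 of 7 libraries (HFD females 6 and 7 and male 3 at 12 weeks, HFD females 1 and 2 and males 12 and 14 at 2 weeks), with an adjusted p of at most 0.0964, and with plain library totals (0.0553). With the 4 groups fitted alone, Fmo2 (0.132) and Fmo5 (0.127) no longer passed. On RD the same comparison called 0% of genes with edgeR (975 at an unadjusted p below 0.05, 52 with DESeq2) and 0 members, 2 members at an unadjusted p below 0.05 and 0 with DESeq2. Fmo1 gave -0.58 ± 0.17 (0.487) and Fmo2 -0.97 ± 0.36 (0.738).

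Marker levels moved with the HFD male comparison, with sums that did not overlap for 7 of 11 marker lists. All 7 macrophage markers tested were lower at 12 weeks, and their summed level was 73.7 to 115 CPM at 12 weeks and 243 to 373 at 2 weeks. The 8 hepatocyte markers summed to 104815 to 108398 CPM at 12 weeks and 75747 to 85557 at 2 weeks, 1 of them passing as higher. Of 8 endothelial markers 6 were lower, with sums of 76.8 to 116 CPM at 12 weeks and 187 to 211 at 2 weeks. Pericentral hepatocyte markers summed to 11332 to 11961 CPM at 12 weeks and 6970 to 8990 at 2 weeks, with 2 of 8 higher, and smooth muscle and mural markers to 40.6 to 50.7 and 72.6 to 113, with 2 of 6 lower. The sums of the adipocyte markers (46.8 to 105.2 against 29.5 to 35.0) and of the glandular epithelium markers (69.5 to 79.8 against 102 to 142) were apart too. The first rests on other genes than Plin1, at 0 in every liver library, and Adipoq, at 0.0161 to 0.162 CPM against 0.0142 to 0.170. In the second, Cdh1 was at 20.7 to 55.4 against 55.7 to 78.6 CPM and was found in every liver library. Neither sum shows that such cells were present. In bulk tissue fewer cells of a type and less RNA per cell cannot be told apart, and the part of these markers in the result was not tested. The list counts that follow stand beside 17.1% of all genes passing in either direction. Of the lists around the family, 5 of 15 candidate transcription factors were higher at 12 weeks in HFD males and 0 lower. Among them were Nfe2l2, the oxidative stress factor NRF2 (1.38 ± 0.16, adjusted p 1.42e-05), and Nr1i3, the xenobiotic receptor CAR (1.36 ± 0.29, 0.00262). Of 7 electron partners 4 were higher, led by Pgrmc2, a heme-binding membrane protein (0.78 ± 0.15, 0.00126), and Cyb5b, a cytochrome b5 (0.58 ± 0.15, 0.0101), of 13 NADPH genes 4, led by malic enzyme Me1 (2.22 ± 0.32, 0.000117), and of 9 amine and sulfur oxidation genes 4, led by Maob (0.79 ± 0.15, 0.00121). Of 5 flavin supply genes 1 was higher, Slc25a32 (1.19 ± 0.22, 0.00086), which is near the share of all genes. None of 8 taurine route genes passed. The medians of these lists were 0.42 for the transcription factors, 0.58 for the electron partners, 0.25 for the NADPH genes, 0.35 for amine and sulfur oxidation, -0.22 for flavin supply and 0.08 for the taurine route, beside 0.02 for all genes.

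Diet was compared within each sex and time. In liver the only call was Fmo1 in males at 2 weeks, lower on HFD, at 77.7, 60.5 and 65.7 CPM against 99.8, 109.8 and 96.6 on RD, groups that did not overlap. The log2 difference was -0.59 ± 0.12 (adjusted p 0.0347), where 0.34% of all genes passed. The call was lost without any of 5 of the 6 libraries (HFD males 13 and 14 and RD males 6, 7 and 8, adjusted p 0.0755 to 0.177) and with the 2 groups alone (0.134). Fmo2, Fmo4 and Fmo5 gave -0.40 ± 0.26, -0.04 ± 0.19 and -0.23 ± 0.18 there.

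In males at 12 weeks all 4 genes had a higher mean on HFD, but none passed with edgeR, where 1.12% of genes passed. All 4 had an unadjusted p below 0.05, as did 2087 of the 15897 genes tested. DESeq2 called 1 member, Fmo1, and 451 of all genes. The log2 values were 0.41 ± 0.12 for Fmo1 (adjusted p 0.105), 0.62 ± 0.26 for Fmo2 (0.291), 0.46 ± 0.19 for Fmo4 (0.31) and 0.53 ± 0.18 for Fmo5 (0.18). The difference between the diet effects at 12 and 2 weeks in males, a comparison chosen after its values were seen, passed for Fmo1 alone of the members, at 1.00 ± 0.17 (adjusted p 0.0117), with 0.352% of all genes passing. That call was lost without HFD male 3 or RD male 3 at 12 weeks or HFD male 13 at 2 weeks (0.051 to 0.0705), and with the groups alone (0.124). Fmo2 gave 1.02 ± 0.36 (0.26), Fmo5 0.76 ± 0.25 (0.206) and Fmo4 0.50 ± 0.28 (0.532). Markers moved with diet in male liver too. At 2 weeks hepatocyte sums were 75747 to 85557 CPM on HFD and 89924 to 111427 on RD, with 0 of 8 markers passing, and smooth muscle and mural sums 72.6 to 113 and 65.0 to 71.1. At 12 weeks 6 of 11 lists did not overlap, among them macrophage sums at 73.7 to 115 CPM on HFD and 187 to 220 on RD, with 4 of 7 markers lower, endothelial sums at 76.8 to 116 and 141 to 171, with 3 of 8 lower, and pericentral sums at 11332 to 11961 and 8533 to 9934, with 0 of 8 passing. The part of these markers in the Fmo1 values was not tested.

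In female liver no member passed for diet with edgeR or DESeq2. The share of all genes was 0.252% at 2 weeks and 0.00629% at 12 weeks. At an unadjusted p below 0.05 were 1 and 0 members, and 1590 and 686 of all genes. That 1 was Fmo4 at 2 weeks, at 12.4, 11.6 and 8.96 CPM on HFD against 19.0, 16.9 and 15.6 on RD, which did not overlap, with a log2 difference of -0.64 ± 0.19 (adjusted p 0.221). The diet by time difference in females passed for 0% of genes with edgeR (544 at an unadjusted p below 0.05, 5 with DESeq2) and 0 members by edgeR and DESeq2, with 0 at an unadjusted p below 0.05. The sex by diet interaction passed for 0% of genes at 2 weeks and 0% at 12 weeks with edgeR, while 1511 and 1104 genes were at an unadjusted p below 0.05 and DESeq2 called 129 and 69 genes and 0 members. By the unadjusted p, 2 members at 2 weeks (Fmo1 0.38 ± 0.17 and Fmo4 -0.60 ± 0.27) and 1 at 12 weeks (Fmo1 -0.40 ± 0.17) were below 0.05.

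In visceral adipose tissue the family was compared over the same factors, with 18325 genes tested. Fmo1 had a lower mean on HFD than on RD in all 4 diet comparisons and passed in males at 12 weeks, and Fmo2 passed as lower in females than males on HFD at 2 weeks. In HFD males Fmo1 and Fmo2 were also lower at 12 than at 2 weeks. Fmo5 ranged from 34.2 to 105.4 CPM and Fmo4 from 0.501 to 2.15 CPM, and neither passed in any of the 14 comparisons. Fmo4 rested on 27.1 to 121 expected counts a library.

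**Figure D4:**
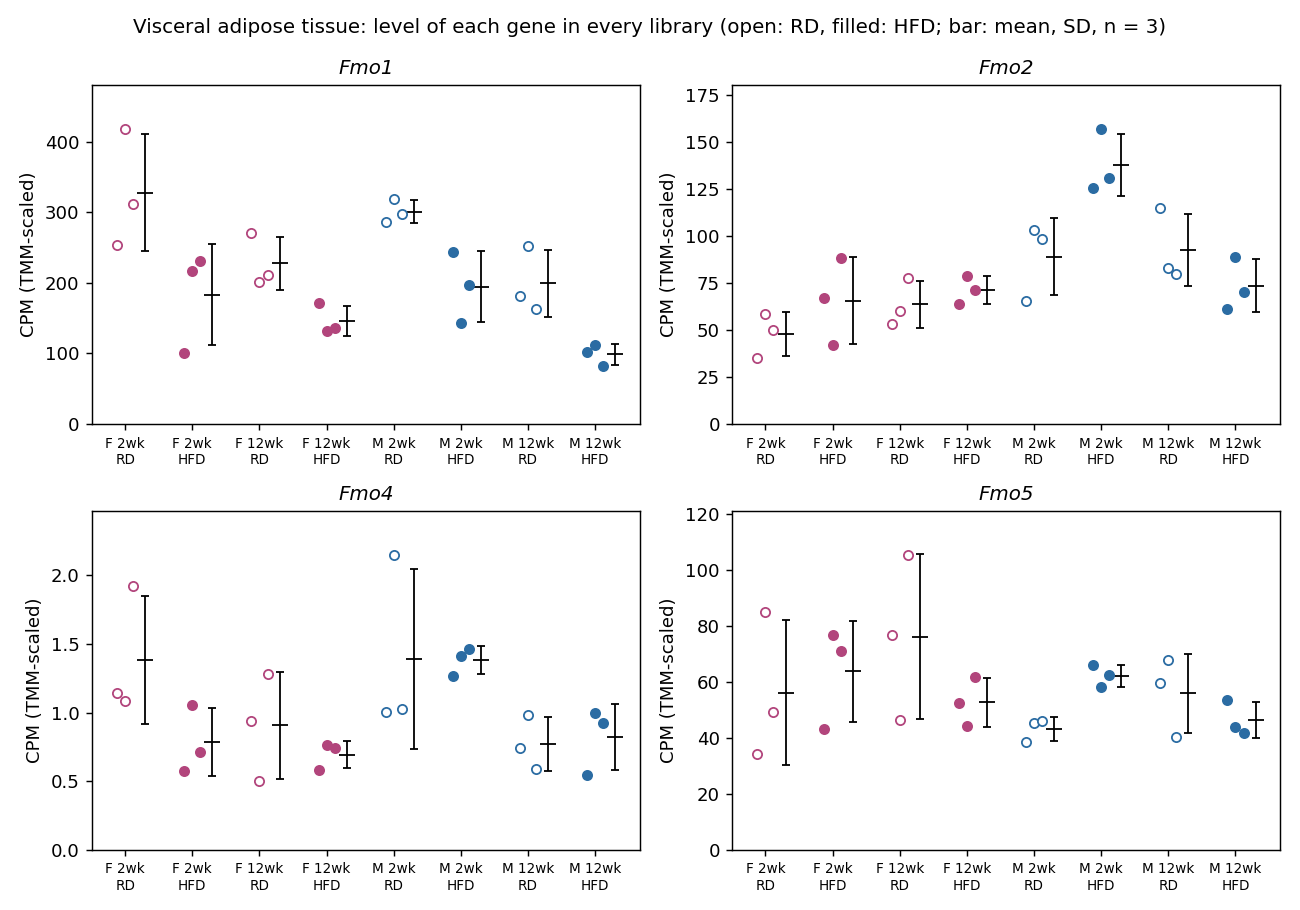
TMM-scaled CPM of each gene in every visceral adipose library, by sex (pink F, blue M), weeks on diet and diet (open RD, filled HFD), with the group mean and SD (n = 3). Fmo1 is lowest in HFD males at 12 weeks (82.6 to 112 CPM) and Fmo2 highest in HFD males at 2 weeks (126 to 157 CPM).

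Fmo1 in males at 12 weeks was at 102, 112 and 82.6 CPM on HFD and 181, 253 and 164 CPM on RD, without overlap. The log2 difference was -1.01 ± 0.28 (adjusted p 0.0129), in a comparison where 28.2% of all genes passed, and with the shared replicate numbers as a replicate block it was -0.996 (0.0149). The call was lost without HFD male 4 (0.0704) or RD male 3 (0.0644). In the other comparisons Fmo1 gave -0.84 ± 0.27 in females at 2 weeks (adjusted p 0.111), -0.63 ± 0.27 in males at 2 weeks (0.425) and -0.64 ± 0.27 in females at 12 weeks (0.282). There 0.235%, 0% and 2.08% of genes passed with edgeR, and for the 0% there were 2022 genes at an unadjusted p below 0.05 and 130 with DESeq2. None of these 3 called a member with edgeR, and each had 1 or 2 members at an unadjusted p below 0.05. Fmo1 was below it in each, and in males at 2 weeks so was Fmo2, which went the other way. Fmo2 was higher on HFD there without overlap, at 0.63 ± 0.25 (adjusted p 0.399). In females 3969 genes were below an unadjusted p of 0.05 at 2 weeks and 2649 at 12 weeks. DESeq2 called 1 member, Fmo1 in females at 2 weeks, where it called 1504 genes.

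The libraries of HFD females at 2 weeks held Fmo1 at 101, 217 and 231 CPM, the first in HFD female 1, against 255, 418 and 312 on RD. HFD female 1 stood apart, with Adipoq at 880 CPM against 2906 and 3163 in the other 2 and with the lowest adipocyte sum of any adipose library, 7141 CPM. Without it the Fmo1 diet value in females at 2 weeks was -0.55 (adjusted p 0.557). Adipocyte sums there were up to 25351 CPM on HFD and at least 26006 on RD, with 0 of 10 markers passing, and their part was not tested. Beside the male 12-week comparison, 2 of 11 marker lists had sums higher on HFD without overlap and 4 lower. Summed epididymis markers were 3182 to 6003 CPM on RD and 1.81 to 6.99 on HFD, and macrophage markers 882 to 1096 on RD and 2750 to 3691 on HFD, with 6 of 7 passing as higher. Endothelial sums were 244 to 971 on RD and 1071 to 1207 on HFD. Mesothelial sums were 284 to 578 and 36.3 to 140, glandular epithelium sums 150 to 275 and 3.88 to 10.2, and pericentral sums 3606 to 5773 and 1558 to 1890. Adipocyte markers summed to 18106 to 28851 CPM on RD and 18171 to 22434 on HFD, with 1 higher and 2 lower of 10. The part of these in the Fmo1 difference was not tested. Around the family, where 28.2% of all genes passed in either direction, 5 of 9 amine and sulfur oxidation genes were lower on HFD and 0 higher. They were led by Tst, the thiosulfate sulfurtransferase (-2.86 ± 0.42, adjusted p 0.000145). Of 8 taurine route genes 2 were lower, including Cth, the cystathionine gamma-lyase (-1.51 ± 0.53, 0.0418), and 1 higher, the taurine transporter Slc6a6 (1.69 ± 0.32, 0.00148). The list medians were -0.59 and -0.75, beside -0.11 for all genes.

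By sex in adipose tissue, Fmo2 in HFD mice at 2 weeks was at 66.9, 41.9 and 88.2 CPM in females and 126, 157 and 131 CPM in males, with no overlap. The log2 difference, female over male, was -1.07 ± 0.26 (adjusted p 0.0283), with 3.8% of all genes passing. It was lost without HFD female 1 or 2 or HFD male 13 or 14 (0.0544 to 0.104), with the 2 groups alone (0.322) and without the male libraries at 2 weeks with more than 100 CPM of Crisp1 (0.0955). Of 11 marker lists 1 had sums apart, the endothelial one, at 536 to 1106 CPM in females and 1148 to 1374 in males. HFD female 1 had the lowest adipocyte sum, as given above. The part of these markers was not tested. On RD at 2 weeks Fmo2 was at 35.2, 58.4 and 50.01 CPM in females and 65.4, 103 and 98.3 in males. The log2 difference was -0.895 ± 0.256 (0.0533), where 4.28% of genes and no member passed with edgeR. Below an unadjusted p of 0.05 were 1 member and 3583 of all genes. DESeq2 called 1 member, Fmo2, and 1986 of all genes. At 12 weeks the share of genes was 10.6% on RD and 2.85% on HFD. No member passed with either tool, and Fmo2 on RD alone (-0.54 ± 0.25, 0.15) was below an unadjusted p of 0.05, as were 5952 of all genes there. The sex by diet interactions passed for 0% of genes at 2 weeks with edgeR (1246 at an unadjusted p below 0.05, 72 with DESeq2) and 1.25% at 12 weeks, and for 0 members by either tool and by the unadjusted p.

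Across the cohorts in HFD males, adipose Fmo1 fell from 244, 143 and 197 CPM at 2 weeks to 102, 112 and 82.6 CPM at 12 weeks, and Fmo2 from 126, 157 and 131 CPM to 61.5, 89.2 and 70.3 CPM. Neither overlapped. The log2 differences were -0.98 ± 0.28 (adjusted p 0.0279) and -0.91 ± 0.26 (0.0283), where 12.1% of all genes passed, and each call was lost without any 1 of 4 libraries. For Fmo1 these were HFD males 2 and 4 at 12 weeks and 12 and 14 at 2 weeks (0.0659 to 0.128), and for Fmo2 HFD males 2 and 4 at 12 weeks and 13 and 14 at 2 weeks (0.0571 to 0.117). Of 11 marker lists, 1 had sums higher at 12 weeks without overlap and 5 lower. Macrophage sums rose from 1254 to 1434 CPM at 2 weeks to 2750 to 3691 at 12 weeks. Lower were mesothelial (230 to 478, then 36.3 to 140), smooth muscle and mural (912 to 1110, then 712 to 889) and glandular epithelium sums (10.6 to 423, then 3.88 to 10.2). So were the pericentral (3648 to 4889, then 1558 to 1890) and periportal lists (1994 to 3484, then 648 to 1541). Epididymis sums overlapped, at 5.15 to 6893 and 1.81 to 6.99. The part of these lists in the Fmo1 and Fmo2 values was not tested. The liver of the same groups held both genes higher at 12 weeks, by 1.38 and 1.90 log2 units, but a tissue difference of this change was not tested. In the other time comparisons, 0% of genes passed with edgeR in RD females (1149 at an unadjusted p below 0.05, 86 with DESeq2), 0% in RD males (1394 and 112) and 1.51% in HFD females (3254 and 1308). There no member passed with edgeR or DESeq2, and 1 member, Fmo1 in RD males (-0.60 ± 0.27, adjusted p 0.639), was below an unadjusted p of 0.05.

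The tissues were compared in a fit of all 48 libraries and 18800 genes. Fmo4 and Fmo5 were far higher in liver, 19.7-fold and 21.4-fold over the mean of the 8 groups, at log2 differences of 4.30 ± 0.11 and 4.42 ± 0.11, and no library of 1 tissue overlapped those of the other. Fmo2 was lower in liver, at -0.45 ± 0.09, and Fmo1 higher, at 0.90 ± 0.08, but scaling by plain library totals, which lowers every liver over adipose value by 1.08 on average, turned Fmo1 to -0.17. The hepatocyte marker Alb stood at 31.1 to 982 CPM in adipose tissue. Here 80.4% of all genes passed, so a call alone says little. In females, with 73.2% of genes passing, the values were 1.44 ± 0.11 for Fmo1, 1.05 ± 0.13 for Fmo2, 5.02 ± 0.17 for Fmo4 and 4.02 ± 0.15 for Fmo5. Males, with 78.5%, gave 0.36 ± 0.11 for Fmo1 (-0.84 with plain totals), -1.95 ± 0.13 for Fmo2, 3.58 ± 0.16 for Fmo4 and 4.83 ± 0.15 for Fmo5.

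**Figure D5:**
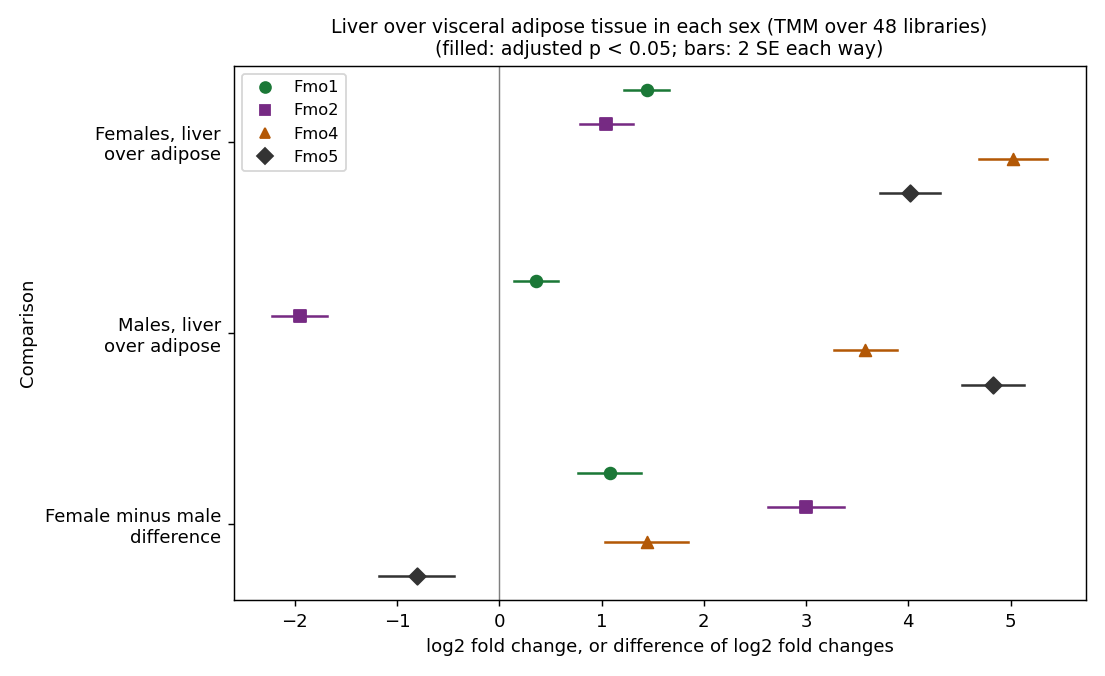
Log2 difference of each gene, liver over visceral adipose tissue, in females, in males and as the female minus male difference, from the fit with TMM scaling over 48 libraries, with bars of 2 SE each way. Fmo2 lies at 1.05 in females (0.09 with plain library totals) and -1.95 in males, and Fmo1 in males, at 0.36, changes sign to -0.84 with plain totals.

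The female minus male difference in these values, chosen after the values were seen, passed for all 4, against 22.8% of all genes. It was 1.08 ± 0.15 for Fmo1 (adjusted p 2.55e-06), 3.00 ± 0.19 for Fmo2 (1.49e-14), 1.44 ± 0.20 for Fmo4 (2.19e-06) and -0.81 ± 0.18 for Fmo5 (0.00131), and it kept its direction and call with plain totals. The liver over adipose value of Fmo2 in females, in contrast, was 0.09 (adjusted p 0.578) with plain totals.

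The genes whose pattern was most like each member, by Pearson r of log2 CPM over the 24 libraries of a tissue, are given as a description. These libraries share their group structure, and male and female livers do not overlap in Fmo1 and Fmo2. In liver the nearest to Fmo1 were Cyp2c38, a cytochrome P450, (r 0.968, rho 0.871), Fmo2 (r 0.958, rho 0.898) and Abcd2, a peroxisomal fatty acid transporter, (r 0.951, rho 0.920). Nearest to Fmo2 were Enpp1, an ectonucleotide pyrophosphatase, (r 0.969, rho 0.923), Acot3, a peroxisomal acyl-CoA thioesterase, (r 0.969, rho 0.936) and Sall1 (r 0.964, rho 0.916). Fmo4 was followed most closely by Papss2, a synthase of the sulfate donor PAPS, (r 0.932, rho 0.917), Prlr, the prolactin receptor, (r 0.931, rho 0.900) and Slc22a27 (r 0.929, rho 0.884), and Fmo5 by Ivns1abp (r 0.892, rho 0.842), Gpt2, mitochondrial alanine aminotransferase, (r 0.872, rho 0.777) and Hsd17b10 (r 0.855, rho 0.851). In adipose tissue Fmo1 was nearest to Echdc3 (r 0.947, rho 0.936), Phkg1, a catalytic subunit of phosphorylase kinase, (r 0.940, rho 0.941) and Cfd, the adipocyte protein adipsin, (r 0.919, rho 0.915). The nearest to Fmo2 there were Gdf10 (r 0.859, rho 0.846), Itgbl1 (r 0.855, rho 0.870) and Nptxr (r 0.846, rho 0.823), and to Fmo5 Kifap3 (r 0.821, rho 0.851), Ppm1b (r 0.810, rho 0.856) and Rad21 (r 0.805, rho 0.794). Fmo4, the lowest of the 4, had Txnrd3 (r 0.725, rho 0.694), Cmtm6 (r 0.695, rho 0.710) and Rnf125 (r 0.675, rho 0.703).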

How the data were processed

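The deposited table gives expected counts per gene symbol for each library. Per the labels, libraries were stranded and made from 200 ng of total RNA, and kallisto, edgeR, DESeq2 and GRCm38 are named in the submitters' processing notes, with no versions or roles. The sources used here do not give how transcripts were summed to symbols. Counts were rounded, genes filtered by group with filterByExpr and scaled by TMM, and 24 libraries of a tissue (48 for the tissue comparisons) were fitted by edgeR 4.0.16's quasi-likelihood test (robust, Benjamini-Hochberg over all genes) in R 4.3.3 with limma 3.58.1. DESeq2 1.42.0, other scalings, no filter, groups alone, a replicate block and left-out libraries were alternatives. Each SE is the log2 change over the root of F. The fit was also run on simulated counts, in each tissue for diet in females at 2 weeks alone. That run does not bear on the tissue fit, the interactions or the scaling. No 2 replicates were alike within sampling noise (lowest chi-square per gene 49.4). In male adipose tissue at 12 weeks, HFD and RD libraries with 1 number come from different mice, and their deviations correlated weakly (0.108, 0.134 and 0.154). The block took such libraries as pairs there, in male liver at 12 weeks and in females of both tissues at 2 weeks. In the tissue fit it paired the liver and adipose libraries of 1 group and number. The labels do not say what a number marks, or whether liver and adipose libraries with 1 number share an animal. All 4 members were tested in every comparison, but values that did not pass are not all printed, above all in adipose tissue. Likeness took the top 3 genes by r. The members and lists were chosen with earlier results of these data known. The other genes with an Fmo symbol are not reported here. Intervals cover the spread between libraries only.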

Additional observations from a re-analysis of the deposited data

Results flagged for a closer look

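Several differences between groups passed a test of the difference itself. In liver on HFD, the female over male log2 value changed between the 2-week and the 12-week cohort by -1.36 for Fmo1, -1.42 for Fmo2 and -1.18 for Fmo5. In male liver, the HFD over RD log2 value of Fmo1 changed by 1.00 between the cohorts. Between tissues, the liver over adipose log2 value differed between females and males by 1.08 for Fmo1, 3.00 for Fmo2, 1.44 for Fmo4 and -0.81 for Fmo5. All 8 comparisons were chosen after their values were seen.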

How the results depend on the processing

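Of 43 values that passed for a member, in 830 alternative fits 787 kept direction and call, 41 lost the call and 2 changed sign. The 2 were Fmo1 liver over adipose with plain library totals, -0.17 over all groups and -0.84 in males. That scaling shifts liver over adipose values by -1.08, and by at most 0.30 within liver and 0.22 within adipose tissue. Most of the 830 fits belong to the tissue comparisons, where 22.8% to 80.4% of all genes passed. The only call lost there was that of Fmo2 in females with plain totals. All other lost calls lay within a tissue, and every adipose call was lost in some fit. The causes of the other changes were not tested. With DESeq2 the count of members passing became 1 in place of 0 for adipose diet in females at 2 weeks, adipose sex on RD at 2 weeks (also 1 with plain totals), liver diet in males at 12 weeks and liver time in RD males. With the groups compared alone, which leaves fewer libraries to estimate the spread, it became 0 for adipose sex on HFD at 2 weeks (also 0 without male libraries above 100 CPM of Crisp1), liver diet by time in males and liver diet in males at 2 weeks, 1 for liver sex by time on HFD, 3 in place of 4 for liver time in HFD males and 4 in place of 3 for liver sex on RD at 2 weeks. Median-of-ratios scaling, no filter and no robust estimation changed no call or direction. The replicate block (the paired fit) changed no call, and 1 value that had not passed changed sign, Fmo2 in liver for diet in females at 2 weeks, to 0.13. In liver, same-numbered males at 12 weeks correlated at -0.11 to 0.13, and same-numbered libraries of the tissues at a median of 0.03. Between the tissues, the own number gave the highest correlation for 16 of 24 pairs, so a shared animal remains possible. The main tissue fit took all libraries as independent.

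Other values that had not passed changed sign as follows. Fmo4 adipose diet in males at 2 weeks was 0.00049 with DESeq2 and 0.041 with plain totals, Fmo2 adipose sex by diet at 2 weeks 0.021 with plain totals and 0.14 without the Crisp1 libraries, Fmo5 adipose sex on HFD at 2 weeks -0.033 without them, and Fmo1 adipose sex on RD at 2 weeks -0.055 with plain totals. Leaving out 1 library at a time moved the number of members passing from 0 to 1 for adipose diet in males at 12 weeks, 0 to 1 for adipose sex on HFD at 2 weeks, 0 to 2 for adipose time in HFD males, 0 to 1 for liver diet by time in males, 0 to 1 for liver diet in males at 2 weeks. It also fell by 1 in some fits of liver time in HFD males, where Fmo4 passed in 3 of 6. The same held for liver sex by time on HFD, where Fmo2 passed in 5 of 12. For 28 values that had not passed, leaving out 1 library gave log2 ranges that include both signs. In liver Fmo5 gave diet by time F -0.15 to 0.28, diet F 12 weeks -0.017 to 0.41, sex HFD 2 weeks -0.074 to 0.095, time HFD F -0.36 to 0.069. Fmo1 gave diet F 12 weeks -0.046 to 0.067, time HFD F -0.049 to 0.068. Fmo2 gave diet F 2 weeks -0.42 to 0.048, sex by diet 2 weeks -0.024 to 0.45, time RD F -0.34 to 0.14. Fmo4 gave diet M 2 weeks -0.25 to 0.062, time RD M -0.039 to 0.42. In adipose tissue Fmo5 gave diet F 2 weeks -0.074 to 0.61, sex by diet 12 weeks -0.52 to 0.053, sex by diet 2 weeks -0.60 to 0.085, sex HFD 2 weeks -0.12 to 0.25, sex RD 2 weeks -0.048 to 0.63. Fmo4 gave diet M 12 weeks -0.068 to 0.33, diet M 2 weeks -0.20 to 0.45, sex RD 12 weeks -0.11 to 0.53, sex RD 2 weeks -0.32 to 0.45, time HFD F -0.35 to 0.10. Fmo1 gave sex by diet 2 weeks -0.43 to 0.086, sex HFD 2 weeks -0.32 to 0.21, sex RD 2 weeks -0.089 to 0.28. Fmo2 gave sex by diet 2 weeks -0.46 to 0.063, sex HFD 12 weeks -0.17 to 0.11, time HFD F -0.12 to 0.40, time RD M -0.13 to 0.18. For the tissue comparisons single libraries were not left out, and leaving out the liver and adipose libraries of 1 group and number together changed no call. Fmo4 in adipose tissue, at 27.1 to 121 expected counts, had a counting error of 9.09% to 19.2% of the level, and the spread within a group was above it in 6 of 8 groups.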
